A study of Oryctolagus cuniculus with 134 samples.

Results

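The pulmonary valve was examined in rabbits that received cardiac irradiation on top of a cholesterol-enriched diet, against rabbits on the same diet without irradiation. The libraries are those whose labels give this tissue and these treatments, 13 of the 134 RNA libraries of the series, 7 of the irradiated group (IR/CHT) and 6 of the diet group (CHT). All animals were male New Zealand White rabbits, with 1 pulmonary valve library per rabbit, 12 weeks old at the start of a protocol of 16 weeks. Both CHT and IR/CHT rabbits ate chow with 0.3% cholesterol and drank vitamin D2 for the first 15 days, at a daily dose of 25000 U scaled to body weight. The IR/CHT rabbits also received 24 Gy of X-rays in 3 fractions of 8 Gy at intervals of 48 h, after 8 weeks of the diet, so that tissue was taken about 8 weeks later. The beam was aimed at the aortic valve and the thoracic aorta, and the dose reaching the pulmonary valve is not given in the sources used here. Rabbits on chow without vitamin D2 (Ctrl, 7 libraries) and on a diet with 5% lard and vitamin D2 (Lard, 7 libraries) entered the same statistical model and serve as background. No group received irradiation without cholesterol among the pulmonary valve libraries, so the effect of irradiation was measured only on top of the diet.

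The pulmonary valve closes the outlet of the right ventricle. Its cusps hold fibroblast-like valve interstitial cells in a collagen and proteoglycan matrix, under a sheet of endothelium, with resident macrophages, and at their base they meet heart muscle and the smooth muscle of the pulmonary artery wall. Ionizing radiation breaks DNA and activates p53, which induces repair, cell cycle arrest and stress genes. High cholesterol loads cells with sterol, which silences sterol synthesis through SREBP2 and induces cholesterol efflux genes through the LXR receptors, while lipid-laden macrophages become foam cells.

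The CHT and IR/CHT pulmonary valve libraries held 14063949 to 21214774 assigned read pairs, and a gene at 1 CPM (read pairs scaled to a library total of 1000000) therefore had a counting SD of 21.7 to 26.7% of its level. Valve interstitial genes were abundant in both groups, with group means of 7581 CPM on CHT and 8547 CPM in IR/CHT for VIM, an intermediate filament gene of mesenchymal cells, and 6518 and 6041 CPM for POSTN, a matrix protein gene of the valve, both named after their values were seen. Libraries L176 and L275 in IR/CHT and L230 and L246 on CHT stood apart. In an index of how much the counts of 2 libraries differ over genes, where 1 would be counting error alone, L230 and L246 lay at 112 to 148 from the other 4 CHT libraries, which lay at 27.7 to 53.7 from each other. Libraries L176 and L275 lay at 93.9 to 204 from the other 5 IR/CHT libraries, which lay at 28.6 to 64.8 from each other. L230 and L246 were also the plate 2 libraries of their group, and L275 and L549 were those of IR/CHT. Library L275 had the lowest mean log2 CPM of the endothelial list (3.06, against 4.69 to 5.20 on CHT) and of the macrophage list (3.22, against 3.81 to 4.44), and the highest of the interstitial cell list (9.09, against 7.95 to 8.32). Library L176 had the highest smooth muscle value (7.89, against 4.72 to 5.28). The libraries were spread over 2 sequencing plates, with 4 CHT and 5 IR/CHT libraries on plate 1 and 2 of each group on plate 2. The rabbit numbers at the start of the library names began with 08 in all Ctrl rabbits, with 09 in all CHT rabbits and with 28 in all IR/CHT rabbits, so that a difference between these number series cannot be told apart from irradiation or, against Ctrl, from the diet. Against Ctrl, the CHT and IR/CHT rabbits also differed by vitamin D2, which cannot be told apart from cholesterol. Fewer cells of a type and less RNA per cell cannot be told apart in these bulk samples.

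Irradiation on top of cholesterol was accompanied by higher expression of a small set of genes in the pulmonary valve, among them the foam cell gene GPNMB, the macrophage receptor gene MERTK, the glucocorticoid-induced gene ZBTB16 and the DNA repair gene DDB2. In the model of all 27 pulmonary valve libraries, 11 of 14450 tested genes (0.0761%) were differentially expressed genes (DEGs; edgeR quasi-likelihood test, Benjamini-Hochberg adjusted p under 0.05 and fold change over 1.5), all higher in IR/CHT. No gene passed in the lower direction, where the smallest adjusted p was 0.0710 and 1499 genes (10.4%) had an unadjusted p under 0.05. DESeq2 called 103 lower genes. In the higher direction 2040 genes (14.1%) had an unadjusted p under 0.05, and DESeq2 called 363. All 7 IR/CHT libraries lay above all 6 CHT libraries for 86 genes (0.595%), and below all of them for 56 genes (0.388%). The median log2 fold change of all tested genes was 0.041. Heart muscle RNA moved with the groups: the mean log2 CPM of a list of heart muscle markers ran from -0.19 to 0.89 on CHT and from 1.19 to 4.54 in IR/CHT. Its part in the other differences was examined only as a covariate, with the values given beside the muscle genes. That fit cannot separate the list from the groups.

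**Figure D1:**
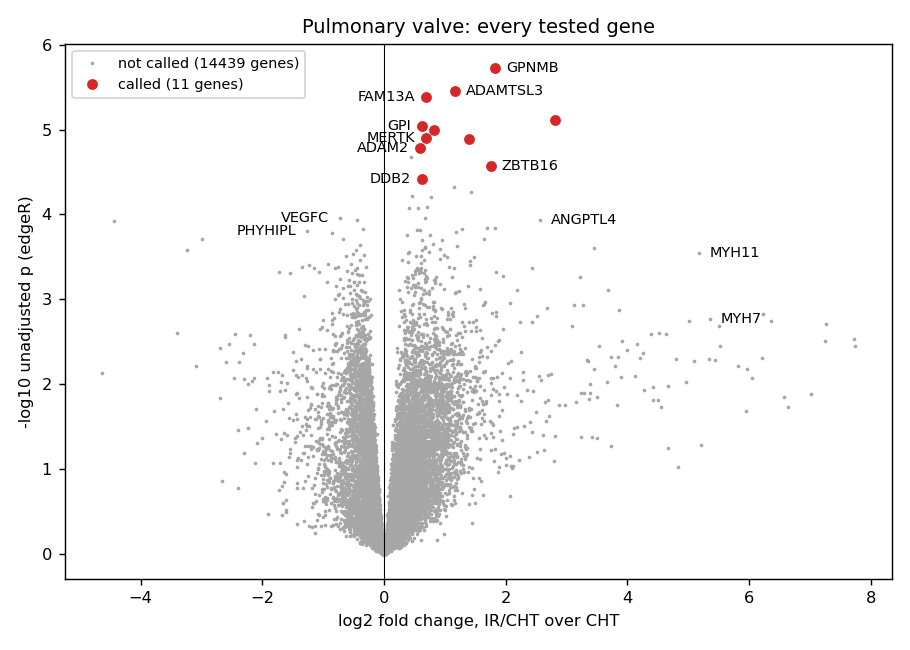
Each point is 1 of 14450 genes tested in the pulmonary valve, with the log2 fold change of IR/CHT over CHT on the x axis and −log10 of the unadjusted edgeR p on the y axis. The 11 called genes, in red, all lie to the right of 0, and muscle genes such as MYH7 and MYH11 lie far to the right at larger p.

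GPNMB (ENSOCUG00000026334), a lysosomal glycoprotein gene of lipid-laden macrophages, had the smallest p. It measured 6.74 to 12.8 CPM (median 9.12) on CHT and 15.5 to 62.9 CPM (median 26.8) in IR/CHT. Every irradiated library was above every CHT library, with L549 the lowest at 15.5 CPM and L196 the highest. The rise was 3.54-fold (log2 fold change 1.82 ± 0.30 (SE), adjusted p = 0.0198, edgeR). Ctrl libraries held 2.90 to 7.70 CPM (median 6.59) and Lard libraries 4.15 to 15.4 CPM (median 7.39). CHT over Ctrl did not pass the test for this gene (log2 0.57, adjusted p = 0.523, edgeR), while IR/CHT over Ctrl did (log2 2.40, adjusted p = 1.14e-05). Beside GPNMB and the next gene, the mean log2 CPM of the macrophage markers was 3.81 to 4.44 on CHT and 3.22 to 4.96 in IR/CHT, and the part of macrophage number in both rises was not tested. Library L275, the lowest of the macrophage list at 3.22, held 23.4 CPM of GPNMB, and L196, the highest for GPNMB, had a macrophage value of 4.78.

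MERTK (ENSOCUG00000012995) encodes a receptor tyrosine kinase through which macrophages take up apoptotic cells. It measured 49.2 to 65.4 CPM (median 51.7) on CHT and 61.1 to 135 CPM (median 79.3) in IR/CHT, and rose 1.62-fold (log2 fold change 0.70 ± 0.13 (SE), adjusted p = 0.0236, edgeR). Here the groups overlapped: 6 of 7 irradiated libraries were above all CHT libraries, and L275, at 61.1 CPM, was below CHT library L154 at 65.4 CPM. MERTK was also higher in IR/CHT than in Ctrl (log2 0.76, adjusted p = 0.000945).

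DDB2 (ENSOCUG00000002076) encodes the damage-sensing subunit of a complex that starts nucleotide excision repair and is a known p53 target. Its values were 10.7 to 15.5 CPM (median 12.7) on CHT and 17.3 to 21.1 CPM (median 19.8) in IR/CHT, with no overlap. The fold change was 1.54 (log2 fold change 0.62 ± 0.13 (SE), adjusted p = 0.0458, edgeR), and this adjusted p was the largest of the 11. Ctrl libraries, at 13.4 to 18.1 CPM (median 14.6), overlapped both groups, and neither CHT nor IR/CHT differed from Ctrl at the threshold.

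ZBTB16 (ENSOCUG00000007470), a zinc finger transcription factor gene induced by glucocorticoids, measured 17.0 to 42.4 CPM (median 24.6) on CHT and 61.3 to 165.7 CPM (median 93.0) in IR/CHT. All irradiated libraries were above all CHT libraries, and the rise was 3.38-fold (log2 fold change 1.76 ± 0.34 (SE), adjusted p = 0.0349, edgeR). Ctrl libraries spread from 25.2 to 99.6 CPM and overlapped both groups.

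ADAMTSL3 (ENSOCUG00000002672) encodes a secreted matrix glycoprotein related to the ADAMTS proteases but without their protease domain. It measured 57.1 to 82.0 CPM (median 67.5) on CHT and 95.3 to 292 CPM (median 133) in IR/CHT (a rise of 2.24-fold, log2 fold change 1.17 ± 0.20 (SE), adjusted p = 0.0198, edgeR). The groups did not overlap, and the libraries that stood apart, L176 and L275, were the highest at 292 and 193.5 CPM. Ctrl libraries, at 82.5 to 130.5 CPM (median 109), were above all CHT libraries. FAM13A (ENSOCUG00000008037), which encodes a protein with a RhoGAP domain, measured 49.4 to 63.9 CPM (median 58.0) on CHT and 69.9 to 132 CPM (median 90.0) in IR/CHT without overlap (1.62-fold, log2 fold change 0.70 ± 0.12 (SE), adjusted p = 0.0198).

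The glycolytic enzyme gene GPI (ENSOCUG00000001455) measured 69.8 to 109 CPM (median 86.3) on CHT and 114 to 155.6 CPM (median 132) in IR/CHT (a rise of 1.54-fold, log2 fold change 0.62 ± 0.11 (SE), adjusted p = 0.0236, edgeR). ADAM2 (ENSOCUG00000006251), named for a sperm surface protein, measured 95.1 to 132 CPM (median 115) on CHT and 138 to 223 CPM (median 168.9) in IR/CHT (a rise of 1.5-fold, log2 fold change 0.59 ± 0.11 (SE), adjusted p = 0.0263). Neither gene's groups overlapped. The remaining 3 DEGs carry no symbol in the deposited tables. ENSOCUG00000029721 had the largest fold change of the 11 (log2 fold change 2.81 ± 0.51 (SE), adjusted p = 0.0236, edgeR) at low levels, 0.0631 to 0.314 CPM on CHT and 0.393 to 2.63 CPM in IR/CHT. ENSOCUG00000023065 and ENSOCUG00000024714 rose by log2 1.39 and 0.83, both without overlap. INSR, the insulin receptor gene, which was singled out after its values were seen, passed the adjusted p (0.0302, edgeR) but not the fold threshold (log2 0.44 ± 0.085), with 71.1 to 89.8 CPM (median 81.9) on CHT and 97.3 to 126 CPM (median 111) in IR/CHT.

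**Figure D2:**
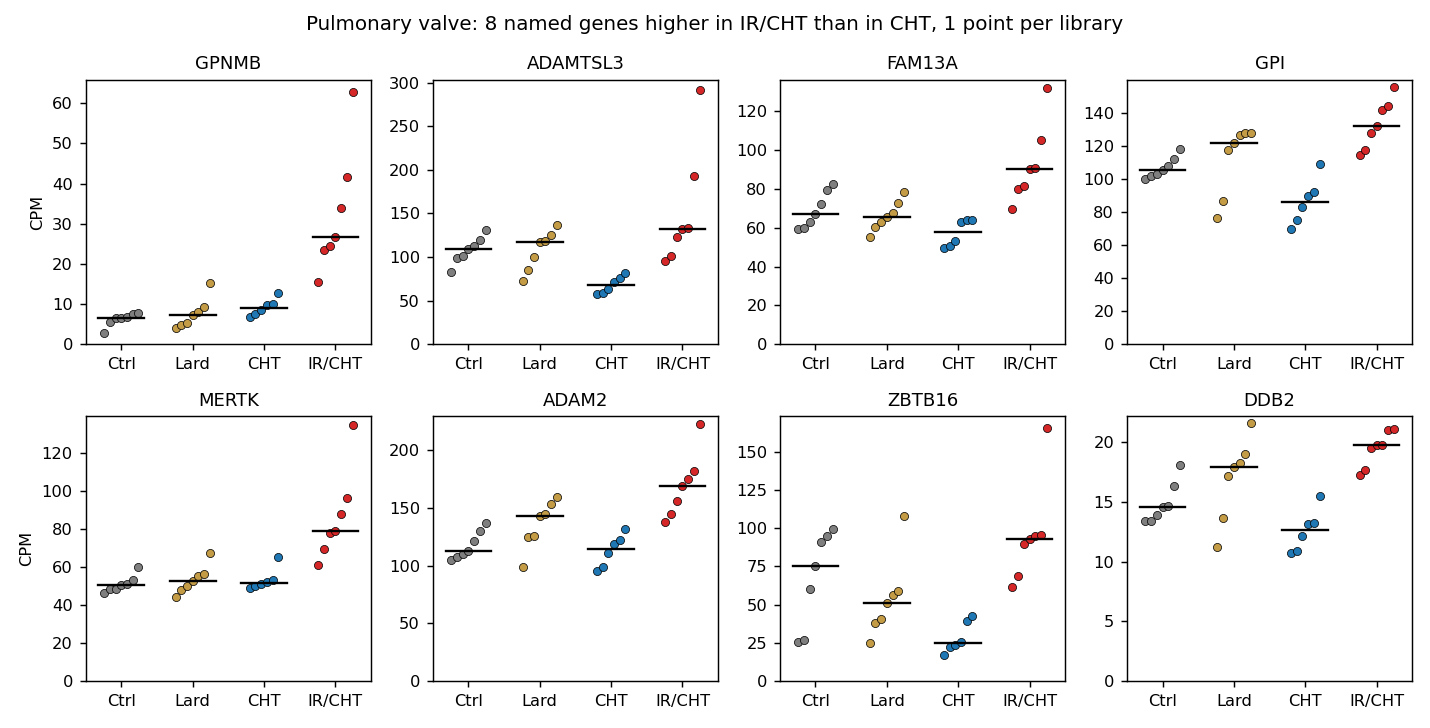
CPM (y axis, from 0) of the 8 DEGs with a symbol in each pulmonary valve library of the 4 groups on the x axis, with points ordered by value and a black line at the group median. The 7 IR/CHT libraries lie above all 6 CHT libraries in every panel except that of MERTK, where 6 of 7 do, and the Ctrl libraries of ADAMTSL3 lie above all CHT libraries.

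The direction of these 11 genes was the same in each subset of libraries examined, whereas their calls were not. All 11 were higher in IR/CHT on plate 1 alone and on plate 2 alone, but none of them passed within a plate. For GPNMB the log2 fold change was 1.97 on plate 1 (adjusted p = 0.0532, edgeR) and 1.25 on plate 2 (adjusted p = 0.189), for DDB2 0.52 and 0.88, and for ZBTB16 2.11 and 1.26. No gene was called when CHT library L171, L188 or L230 was left out, 3 of the 11 stayed called without CHT library L267, 2 without CHT library L246, 4 without IR/CHT library L176 and 6 without IR/CHT library L549. With both L176 and L275 left out, 5 remained, namely GPNMB, ADAMTSL3, FAM13A, MERTK and ADAM2. With CHT libraries L230 and L246 left out together, none of the 11 stayed called, GPNMB had log2 1.75 (adjusted p = 0.134, edgeR) and ZBTB16 2.10 (adjusted p = 0.0878), and the 2 genes called were FKBP5, higher (log2 1.56), and GCLC, lower (log2 -0.82). In a model of the 13 CHT and IR/CHT libraries alone no gene was called, and GPNMB had log2 1.83 with an adjusted p of 0.0617.

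Of the genes that were lower in IR/CHT, those with the smallest p did not pass the adjusted threshold, and their values are given as such. VEGFC, a growth factor gene of lymphatic vessels, measured 51.6 to 78.5 CPM (median 73.9) on CHT and 30.0 to 51.6 CPM (median 40.5) in IR/CHT (log2 fold change -0.73 ± 0.16 (SE), adjusted p = 0.0710, edgeR). All irradiated libraries were below all CHT libraries for VEGFC, for the splicing factor gene SRSF9 (log2 -0.44 ± 0.097), for PHYHIPL (log2 -1.26 ± 0.29) and for FAM107B (log2 -0.86 ± 0.20). FAM107B was at 212 and 180.3 CPM in L230 and L246 and at 120.0 CPM or below in the other 4 CHT libraries. Its log2 difference was -0.53 on plate 1, -1.34 on plate 2 and -0.54 without L230 and L246, and that of PHYHIPL -0.94, -2.12 and -1.13. THRAP3, which encodes a protein of transcription and splicing complexes, overlapped in 1 irradiated library (log2 -0.35 ± 0.080, adjusted p = 0.0712, edgeR). VEGFC was lower in IR/CHT than in Ctrl as well (log2 -0.76, adjusted p = 0.0128).

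Genes of the response to DNA damage were described through a list of p53 targets and damage response genes. Of its 20 tested members, DDB2 alone was called in the edgeR model (all genes, 0.0761%), 4 had an unadjusted p under 0.05 with higher values in IR/CHT (all genes, 14.1%), 0 with lower values (all genes, 10.4%), and the median log2 fold change was 0.17. The other members at that level, named after their values were seen, were SESN2, TP53I3 and XPC. SESN2, which encodes the stress protein sestrin, measured 0.157 to 0.597 CPM (median 0.353) on CHT and 0.888 to 1.74 CPM (median 1.02) in IR/CHT without overlap (log2 fold change 1.83 ± 0.41 (SE), adjusted p = 0.0712, edgeR). It passed the adjusted p in 2 alternative fits. TP53I3, an oxidoreductase gene, had log2 0.66 ± 0.30 and XPC, a DNA damage sensor gene, 0.33 ± 0.16, both with overlapping groups. BAX, the pro-apoptotic p53 target, stood at 2.77 to 6.58 CPM (median 3.58) on CHT and 2.99 to 7.26 CPM (median 4.25) in IR/CHT (log2 0.17 ± 0.24). Under these symbols, CDKN1A, MDM2 and GDF15 are not listed in the tables used here and were not analysed. Genes of double-strand break repair had 0 of 17 members higher and 4 lower at an unadjusted p under 0.05 (median log2 -0.17), and mitosis genes 1 higher and 2 lower of 24 (median -0.23). None of the genes of these 2 lists was called. Without L230 and L246 the lower counts of these lists were 1 and 0, and the lower share of all genes was 5.30%. The senescence list had 2 higher and 1 lower of 12 (median 0.10), and DNA replication genes 0 higher and 1 lower of 18.

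Genes of antigen presentation by MHC class II and macrophage markers had more members on the higher than on the lower side. Of 6 tested genes of MHC class II presentation, 5 had an unadjusted p under 0.05 with higher values in IR/CHT, where 14.1% of all genes did, and the median log2 fold change was 1.06. The edgeR model called none against CHT, and 3 higher for IR/CHT over Ctrl (all genes, 0.581%). HLA-DRA, the alpha chain gene of the class II molecule DR, measured 22 to 36.7 CPM (median 31.8) on CHT and 19.9 to 122 CPM (median 65.2) in IR/CHT (log2 1.08 ± 0.32, adjusted p = 0.0922, edgeR). Its highest irradiated library was L176 and its lowest L275, which lay below all CHT libraries, while the other 6 lay above them. CD74, the invariant chain gene, had log2 1.03 ± 0.31 with overlap in 3 irradiated libraries, and HLA-DMA, which helps load peptide, 1.04 ± 0.25 with no overlap. These 3 genes were named after their values were seen, and each passed the adjusted p in 1 alternative fit. Without L176 and L275, 5 of 7 were on the higher side (median log2 1.0), where 5.39% of all genes were. The count was 6 of 6 on plate 1 (median 1.29) and 1 of 7 on plate 2 (median 0.19), which held L275. In either direction, 1698 of all genes had an unadjusted p under 0.05 on plate 1 and 3332 on plate 2. On plate 2 the log2 difference was 0.19 for HLA-DRA and 0.065 for CD74.

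Of 20 macrophage markers, MERTK was called (all genes, 0.0761%), and 6 had an unadjusted p under 0.05 with higher values in IR/CHT (all genes, 14.1%) and 0 with lower (median log2 0.32). The mean log2 CPM of the list ran from 3.81 to 4.44 (median 4.19) on CHT and from 3.22 to 4.96 (median 4.65) in IR/CHT. Library L275 was the lowest. CD68, a lysosomal protein gene of macrophages, measured 16.6 to 28.5 CPM (median 23.1) on CHT and 20.5 to 39.0 CPM (median 27.8) in IR/CHT (log2 0.30 ± 0.16, adjusted p = 0.227, edgeR). CD163, the scavenger receptor gene for hemoglobin and haptoglobin, measured 55.1 to 119.5 CPM (median 75.2) on CHT and 7.60 to 121 CPM (median 102) in IR/CHT, with L275 at 7.60 CPM and the other irradiated libraries from 92.8 CPM up. Without L176 and L275 the count was 9 of 20 (all genes, 5.39%, median 0.34). On plate 2 alone, which held L275, it was 1 higher and 1 lower, and 3332 of all genes were at that p in either direction.

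Of 16 complement genes, 7 were on the higher side at an unadjusted p under 0.05 (all genes, 14.1%) and 0 on the lower (median log2 0.49), and the edgeR model called none. The example named after its values were seen, ITGAM, a chain of complement receptor 3, measured 10.4 to 17.0 CPM (median 13.2) on CHT and 12.3 to 26.8 CPM (median 22.6) in IR/CHT (log2 0.68 ± 0.21). It passed the adjusted p in 1 alternative fit. Among 24 foam cell and lysosomal genes, GPNMB was called (all genes, 0.0761%), 6 were on the higher side (all genes, 14.1%) and 1 on the lower (all genes, 10.4%; median 0.20). CTSB, a lysosomal protease gene also named after its values were seen, lay at 299 to 464 CPM (median 401) on CHT and 469 to 624.9 CPM (median 565.5) in IR/CHT, without overlap and without passing the test (log2 0.45 ± 0.13, adjusted p = 0.0839, edgeR). MMP12, a macrophage elastase gene named after its values were seen, was low throughout and measured 0.178 to 0.895 CPM (median 0.505) on CHT and 0.274 to 5.25 CPM (median 1.12) in IR/CHT (log2 1.97 ± 0.72). Without L176 and L275 the complement count was 5 of 16 and the foam cell count 10 of 24 (all genes, 5.39%), and without L230 and L246 they were 3 and 7 (all genes, 9.96%).

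Interferon response genes had 6 of 24 tested members above a log2 fold change of 0 in IR/CHT, where 54.3% of all genes were. Of the 24, 2 were higher and 4 lower at an unadjusted p under 0.05 (all genes, 14.1% and 10.4%), none was called, and the median log2 fold change was -0.22. OAS2, an antiviral synthetase gene, had log2 0.94 ± 0.35, and was named after its values were seen. Of 13 cytokine and chemokine genes, 2 were higher and 1 lower (median 0.18). The lower gene was CCL2, the monocyte chemoattractant, at 4.10 to 24.1 CPM (median 7.58) on CHT and 1.3 to 6.13 CPM (median 4.98) in IR/CHT (log2 -1.10 ± 0.41, adjusted p = 0.127, edgeR), with overlapping groups. On CHT its highest library was L230, with L246 next at 8.09 CPM, and in IR/CHT its lowest was L275, with L238 next at 3.48 CPM. The log2 difference of CCL2 was -0.36 on plate 1, -2.32 on plate 2 and -0.53 without L230 and L246. Markers of neutrophils (6 tested), T and NK cells (2), B and plasma cells (5) and mast cells (1) had 1, 0, 2 and 0 members higher and 1, 0, 0 and 0 lower at an unadjusted p under 0.05, and none was called.

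Of the genes that answer to sterol, 2 of 6 LXR targets and 10 of 18 synthesis and uptake genes were called for CHT over Ctrl (all genes, 0.159%), and none for IR/CHT over CHT. ABCA1, the cholesterol exporter induced by LXR, measured 76.2 to 152.5 CPM (median 109) in Ctrl, 546.4 to 756 CPM (median 621) on CHT and 657 to 1017 CPM (median 801) in IR/CHT. It passed for CHT over Ctrl (log2 2.47 ± 0.15, adjusted p = 1.58e-11, edgeR) and not for IR/CHT over CHT (log2 0.40 ± 0.15, adjusted p = 0.120), where 5 of 7 irradiated libraries were above all CHT libraries. Of 6 LXR targets, 3 were on the higher side in IR/CHT at an unadjusted p under 0.05 (all genes, 14.1%, median log2 0.47), namely ABCA1 and, named after their values were seen, PLTP (log2 0.92 ± 0.22), a lipid transfer protein gene, and MYLIP (log2 0.39 ± 0.096), a ubiquitin ligase gene.

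In the list of 18 cholesterol synthesis and uptake genes, 12 were called lower for IR/CHT over Ctrl (all genes, 0.125%). For IR/CHT over CHT, 1 was higher and 4 lower at an unadjusted p under 0.05 (all genes, 14.1% and 10.4%, median log2 -0.028). These comparisons share the Ctrl, CHT or IR/CHT libraries.

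Of 14 tested glucocorticoid-responsive genes, ZBTB16 was called (all genes, 0.0761%) and 6 had an unadjusted p under 0.05 with higher values in IR/CHT (all genes, 14.1%), 0 with lower (median log2 0.35). The mean log2 CPM of the list ran from 4.88 to 5.40 (median 5.10) on CHT and from 5.47 to 5.76 (median 5.52) in IR/CHT, without overlap. Ctrl libraries ran from 5.04 to 5.74 and overlapped both groups. The 3 further members given here were named after their values were seen. FKBP5, a glucocorticoid receptor chaperone gene, measured 20.5 to 85.1 CPM (median 39.3) on CHT and 45.4 to 129.9 CPM (median 105) in IR/CHT (log2 1.18 ± 0.27, adjusted p = 0.0712, edgeR), and its log2 difference was 1.71 on plate 1 and 0.20 on plate 2. TSC22D3, the glucocorticoid-induced leucine zipper gene, measured 205 to 354 CPM (median 282) in Ctrl, 154.3 to 195.9 CPM (median 172.9) on CHT and 162 to 299.9 CPM (median 258.8) in IR/CHT. It was lower on CHT than in Ctrl (log2 -0.70, adjusted p = 0.0106, edgeR), and did not pass for IR/CHT over CHT (log2 0.50 ± 0.13). PER1, also a clock gene, had log2 1.32 ± 0.38, with L275 the highest at 116 CPM, and 0.68 without L275. Without L176 and L275, 5 of 14 members were on the higher side (all genes, 5.39%; median 0.31). The circadian clock list had 4 higher and 2 lower of 16 (median 0.33), and 2 and 0 without these libraries (median -0.016). The hour at which tissue was taken is not given in the sources used here.

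Collagens had more members on the higher than on the lower side, with counts that were smaller without library L275. Of 22 tested collagens, 8 had an unadjusted p under 0.05 with higher values in IR/CHT (all genes, 14.1%) and 0 with lower (median log2 0.52). Without L275 the count was 4 (all genes, 7.71%; median 0.16), and without L176 and L275 it was 2 (all genes, 5.39%; median 0.071). Without L230 and L246 it was 7 (all genes, 9.96%). The share of all genes on the higher side was thus also smaller without these libraries. COL1A1, the main fibrillar collagen chain gene, measured 149 to 592 CPM (median 268.3) on CHT and 223 to 2488 CPM (median 289) in IR/CHT, where L275 held the maximum (log2 1.01 ± 0.47, and -0.058 without L275). COL3A1, a second fibrillar chain gene, measured 1921 to 3345 CPM (median 2502) and 1796 to 4701 CPM (median 2663) (log2 0.12 ± 0.18, and -0.060 without L275). The other matrix genes had 7 higher and 2 lower of 35 (median 0.16), and matrix proteases and their inhibitors 4 higher and 1 lower of 21 (median 0.36). FBLN2, a fibulin gene of elastic matrix, was named after its values were seen. It measured 1.74 to 2.90 CPM (median 2.56) on CHT and 4.04 to 38.1 CPM (median 5.48) in IR/CHT without overlap (log2 2.44 ± 0.60, adjusted p = 0.0712, edgeR), with L176 and L275 at 38.1 and 30.3 CPM and the other 5 irradiated libraries at 5.99 CPM or below.

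Of 33 genes of TGF-beta and BMP signaling, 10 were higher (all genes, 14.1%) and 2 lower (all genes, 10.4%) at an unadjusted p under 0.05 (median log2 0.24). Without L176 and L275 the counts were 5 and 1 (median 0.13), and 1538 of all genes were at that p in either direction, against 3539 with these libraries. TGFBR3, a TGF-beta coreceptor gene named after its values were seen, measured 92.5 to 122 CPM (median 114) on CHT and 128 to 249.4 CPM (median 144) in IR/CHT without overlap (log2 0.51 ± 0.13, adjusted p = 0.0737, edgeR). Wnt genes had 2 higher and 4 lower of 31 (median 0.16) and ossification genes 1 and 1 of 16 (median 0.14), beside the same shares of all genes. Valve interstitial and fibroblast markers had 5 higher and 0 lower of 20 (all genes, 14.1% and 10.4%, median 0.26). TBX20, a transcription factor gene of the developing heart and its valves, was named after its values were seen and measured 288 to 381 CPM (median 348) in Ctrl, 174.3 to 231.3 CPM (median 203) on CHT and 208 to 419 CPM (median 249.4) in IR/CHT. It was lower on CHT than in Ctrl (log2 -0.73, adjusted p = 0.0400, edgeR) and did not pass for IR/CHT over CHT (log2 0.53 ± 0.15, adjusted p = 0.0877). Endothelial markers had 1 higher and 1 lower of 21 (median 0.024).

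Of all lists, heart muscle markers had the widest median fold change. Of 21 heart muscle markers, 16 had an unadjusted p under 0.05 with higher values in IR/CHT and 0 with lower, 10 did not overlap between the groups (all genes, 14.1% at that p and 0.595% without overlap), and the median log2 fold change was 4.15, yet the edgeR model called none. The mean log2 CPM of the list ran from -0.19 to 0.89 on CHT and from 1.19 to 4.54 in IR/CHT. It ran from 0.97 to 6.26 in Ctrl and from 0.11 to 6.63 in Lard, so that the CHT libraries were the uniformly low group. MYH7, the slow cardiac myosin heavy chain gene, measured 5.65 to 28.5 CPM (median 14.6) on CHT, 43.1 to 1527 CPM (median 355) in IR/CHT and 18.8 to 4599 CPM (median 156.4) in Ctrl (IR/CHT over CHT, log2 5.36 ± 1.51, adjusted p = 0.0856, edgeR). In IR/CHT it was at 1158 CPM or more in L196, L238 and L259, at 355 CPM in L176, and at 74.1 CPM or less in the other 3. MYL2, a ventricular myosin light chain gene named after its values were seen, measured 0.357 to 2.08 CPM (median 0.788) on CHT and 3.73 to 112 CPM (median 23.8) in IR/CHT, without overlap. MYH7 and MYL2 each passed the adjusted p in 2 alternative fits. The log2 difference was 1.84 for MYH7 and 3.36 for MYL2 on plate 2 alone. Without L176 and L275 the heart muscle count was 15 of 21 (median log2 4.37). It was 16 of 21 on plate 1 (median 4.47) and 0 of 21 on plate 2 (median 1.21). In either direction, 1698 of all genes were at that p on plate 1 and 3332 on plate 2.

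Of 16 smooth muscle markers, 10 were on the higher side at an unadjusted p under 0.05 (all genes, 14.1%) and 0 on the lower (all genes, 10.4%, median log2 1.18). Without L176 and L275 the higher count was 6 (median 0.44), and 1538 of all genes were at that p in either direction, against 3539 with these libraries. MYH11, the smooth muscle myosin heavy chain gene, was named after its values were seen. It measured 53.1 to 121 CPM (median 72.8) on CHT and 59.2 to 17929.7 CPM (median 217) in IR/CHT, with L176 at 17929.7 CPM and L238 at 1402 CPM, the other 5 at 238.1 CPM or below (log2 5.17 ± 1.21, adjusted p = 0.0712, edgeR). The log2 difference of MYH11 was 2.17 without L176, 2.39 without L176 and L275, and 0.33 on plate 2 alone. ACTA2, the smooth muscle and myofibroblast actin gene, measured 166.6 to 319 CPM (median 248.8) on CHT and 82.4 to 2074 CPM (median 359) in IR/CHT, where L176 held the maximum (log2 1.20 ± 0.49). The log2 difference of ACTA2 was 0.36 without L176, 1.48 on plate 1 and 0.0088 on plate 2 alone. All 7 tested adipocyte markers were on the higher side at an unadjusted p under 0.05 (all genes, 14.1%, median 1.26), and 3 of 7 without L176 and L275. ADIPOQ, the adiponectin gene, was at 14.5 and 13.8 CPM in L176 and L259, at 0.391 CPM or below in the other 5 irradiated libraries, and at 1.19 CPM or below on CHT.

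With the heart muscle list as a covariate no gene was called in the pulmonary valve, 2460 had an unadjusted p under 0.05, and the log2 fold change was 1.96 for GPNMB (adjusted p = 0.0716, edgeR), 1.47 for ZBTB16, 0.98 for ADAMTSL3 and 0.55 for DDB2. The level of that list did not overlap between CHT (-0.19 to 0.89) and IR/CHT (1.19 to 4.54). This fit therefore cannot separate the list from treatment, and the absence of calls does not measure its part. With the smooth muscle list as a covariate, added after seeing the data, no gene was called either, 2167 had an unadjusted p under 0.05, and the log2 fold change was 1.92 for GPNMB, 1.3 for ZBTB16, 0.73 for ADAMTSL3 and 0.56 for DDB2. MYH11, at log2 0.18, is itself a member of that list, so the fit reduced its difference by construction. How much muscle tissue was dissected with each valve was not tested.

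**Figure D3:**
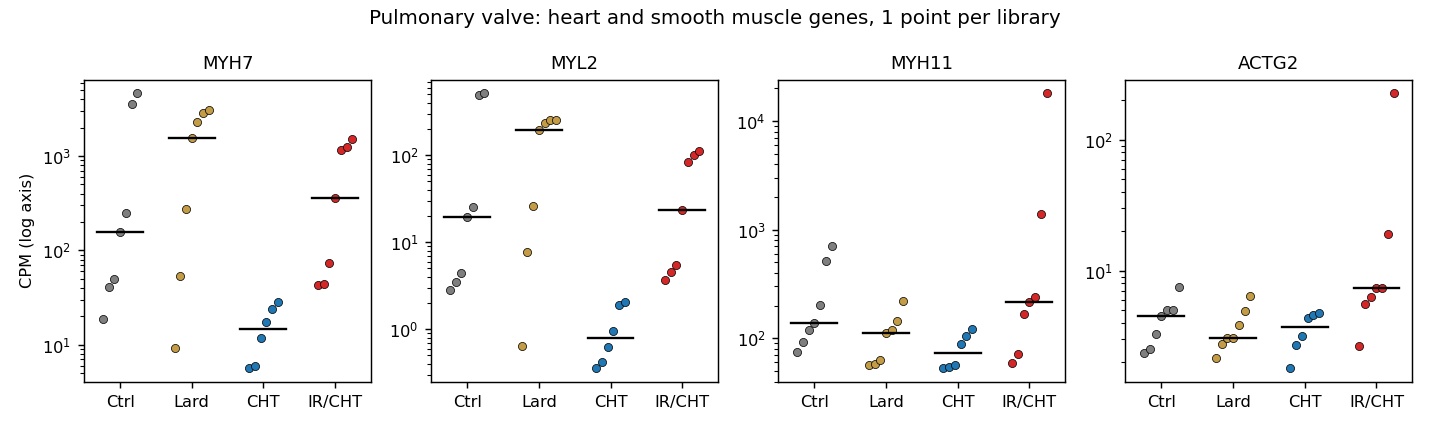
CPM on a log y axis of a pair of heart muscle genes (MYH7, MYL2) and a pair of smooth muscle genes (MYH11, and ACTG2, a smooth muscle actin gene named after its values were seen) in each pulmonary valve library of the 4 groups on the x axis, with points ordered by value and a black line at the group median. The 6 CHT libraries are low and close together for MYH7 (5.65 to 28.5 CPM), while the other groups spread widely, and 1 IR/CHT library (L176) is far above the rest for MYH11 and ACTG2.

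Among metabolic and stress lists, 5 of 16 oxidative stress defense genes were higher and 1 lower at an unadjusted p under 0.05 (all genes, 14.1% and 10.4%, median log2 0.21). FTL, the ferritin light chain gene, measured 322 to 482 CPM (median 418) on CHT and 447 to 841 CPM (median 642) in IR/CHT (log2 0.60 ± 0.14, adjusted p = 0.0712, edgeR). GCLC, the catalytic subunit gene of glutathione synthesis, was the lower member, with 14.7 to 22.4 CPM (median 19.3) in Ctrl, 24.7 to 59.9 CPM (median 39.3) on CHT and 21.5 to 32.2 CPM (median 25.2) in IR/CHT. It was higher on CHT than in Ctrl (log2 1.13, adjusted p = 9.75e-05, edgeR) and did not pass for IR/CHT over CHT (log2 -0.63 ± 0.15, adjusted p = 0.0712). Both genes were named after their values were seen. Hypoxia and glycolysis genes had 6 higher and 0 lower of 15 (median 0.30), respiratory chain genes 1 higher and 7 lower of 20 (median -0.025), and immediate early genes 1 higher and 0 lower of 16 (median 0.012). Without L176 and L275 the hypoxia and glycolysis count was 2 and the respiratory chain counts 1 and 2. Without L230 and L246 these counts were 1, and 0 and 1, and the oxidative stress counts 2 higher and 2 lower, where 9.96% of all genes were higher and 5.30% lower. Red blood cell and platelet markers (4 tested) had a median of 0.76, which was 0.015 without L176 and L275, and nerve sheath and pigment cell markers (7 tested) had 0.43.

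**Figure D4:**
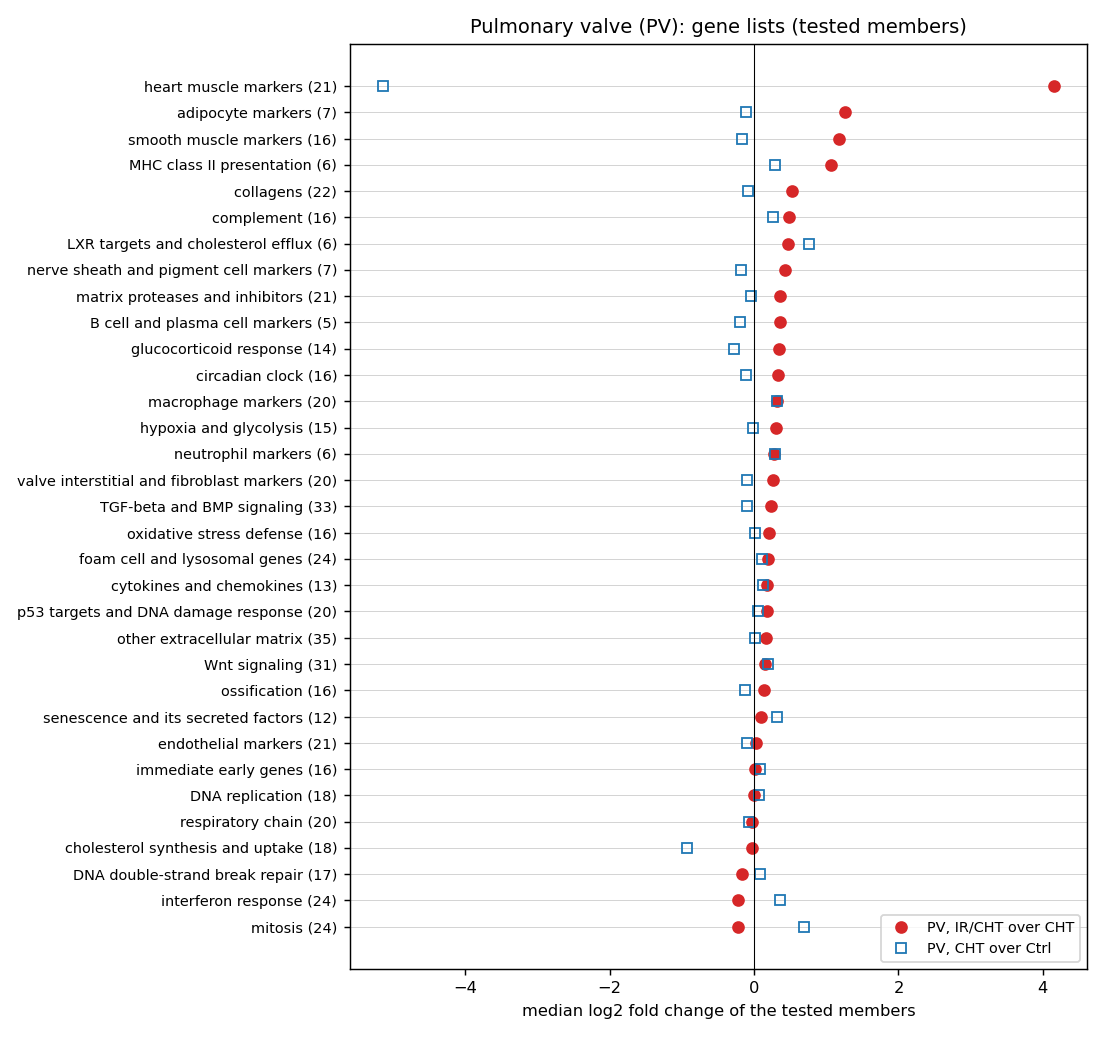
Median log2 fold change (x axis) of the tested members of each gene list with at least 5 tested members, with their number in parentheses, for IR/CHT over CHT (red circles) and CHT over Ctrl (open squares) in the pulmonary valve, which share the CHT libraries. Heart muscle markers lie at 4.15 and -5.14, and every other list lies between -0.23 and 1.26 for IR/CHT over CHT.

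Against Ctrl, fewer genes passed for CHT than for IR/CHT. CHT over Ctrl gave 23 DEGs (0.159%), 7 higher and 16 lower, and IR/CHT over Ctrl gave 102 (0.706%), 84 higher and 18 lower. Without library L176 the count for IR/CHT over Ctrl was 50, and without Ctrl library L167, L153, L200, L263 or L242 it was 60 to 67. The difference between these counts is not a test of irradiation, and the comparisons share libraries. Of the 11 genes called for IR/CHT over CHT, GPNMB, MERTK, ADAM2, ENSOCUG00000023065 and ENSOCUG00000024714 also passed the adjusted p for IR/CHT over Ctrl, and none passed for CHT over Ctrl. For ZBTB16, ADAMTSL3 and GPI the log2 difference of CHT from Ctrl was -1.26, -0.66 and -0.30, and that of IR/CHT from Ctrl was 0.50, 0.50 and 0.32, none of which passed.

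The same contrast was then set against the aortic valve, the other semilunar valve, at which the beam was aimed (7 IR/CHT and 6 CHT libraries). The difference between the responses was tested in 1 model of both valves as an interaction, called at an adjusted p under 0.05. Of 15975 genes, 2219 differed (13.9%), 1555 with the larger value in the pulmonary valve and 664 with the smaller. Within that model the aortic valve had 3598 DEGs for IR/CHT over CHT (22.5%) and the pulmonary valve 30 (0.188%).

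The genes that rose in the pulmonary valve differed from each other in the aortic valve. GPNMB had log2 2.22 ± 0.33 (SE, adjusted p = 8.37e-07) there, at much higher levels (544.8 to 2022 CPM (median 884) on CHT and 3299 to 9376 CPM (median 4018) in IR/CHT), and the interaction was -0.41 ± 0.45 (SE, adjusted p = 0.620). DDB2 had log2 0.83 ± 0.14 (SE, adjusted p = 4.49e-06) in the aortic valve, with an interaction of -0.22 ± 0.19 (SE, adjusted p = 0.508). The interactions of MERTK and GPI did not pass either, at -0.35 ± 0.19 and -0.54 ± 0.28. ADAMTSL3 and ADAM2 were lower in IR/CHT than in CHT in the aortic valve, at log2 -1.13 ± 0.20 (SE, adjusted p = 1.43e-05) and -1.0 ± 0.14 (SE, adjusted p = 2.08e-07), and their interactions were 2.28 ± 0.28 (SE, adjusted p = 1.85e-07) and 1.58 ± 0.20 (SE, adjusted p = 2.72e-07). ZBTB16 and FAM13A had log2 -0.44 ± 0.33 (SE, adjusted p = 0.351) and 0.10 ± 0.14 (SE, adjusted p = 0.635) in the aortic valve, and their interactions were 2.17 ± 0.48 (SE, adjusted p = 0.00117) and 0.58 ± 0.19 (SE, adjusted p = 0.0339).

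By the smallest p of the interaction, the genes with the larger value in the pulmonary valve were PDE3A, TET1 and CNGA2. In the pulmonary valve PDE3A, a phosphodiesterase gene of heart and vascular muscle, measured 116 to 155.2 CPM (median 123) on CHT and 135 to 168.5 CPM (median 145) in IR/CHT, and in the aortic valve 87.4 to 99 CPM (median 90.9) and 23.9 to 45.1 CPM (median 43.9). TET1, a DNA demethylation enzyme gene, had log2 -1.90 ± 0.14 (SE, adjusted p = 2.15e-14) in the aortic valve and an interaction of 1.88 ± 0.20 (SE, adjusted p = 3.54e-09), and CNGA2, an ion channel gene, -3.10 ± 0.27 (SE, adjusted p = 2.02e-12) and 3.31 ± 0.36 (SE, adjusted p = 7.77e-09). The interaction of PDE3A was 1.47 ± 0.15 (SE, adjusted p = 3.54e-09). These 3 genes did not pass in the pulmonary valve itself.

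With the smaller value in the pulmonary valve, the first genes were GGH, TIMP1 and PLIN2. TIMP1, a metalloprotease inhibitor gene, measured 57.0 to 98.7 CPM (median 63.0) on CHT and 56.3 to 105 CPM (median 76.0) in IR/CHT in the pulmonary valve, and 100.3 to 198.7 CPM (median 113) and 387 to 732 CPM (median 489.9) in the aortic valve (interaction -1.73 ± 0.25 (SE, adjusted p = 2.65e-06)). PLIN2, a lipid droplet coat protein gene, had an interaction of -1.72 ± 0.27 (SE, adjusted p = 8.69e-06) and GGH, a lysosomal folate hydrolase gene, of -2.71 ± 0.39 (SE, adjusted p = 2.65e-06). Of the fixed genes, CD68 (interaction -1.45 ± 0.28 (SE, adjusted p = 0.000269)), CCL2 (interaction -2.40 ± 0.59 (SE, adjusted p = 0.00326)) and BAX (interaction -1.27 ± 0.44 (SE, adjusted p = 0.0460)) also had the smaller value in the pulmonary valve, and MYH7 the larger (6.06 ± 1.71 (SE, adjusted p = 0.0117)). Adjusted over all genes, the interaction p of BAX became 0.0919 with plate as a covariate and 0.0564 with no filter on low counts, and that of MYH7 became 0.162 with rabbit as a block. That of FAM13A became 0.0615 with plate as a covariate, 0.126 with no filter and 0.0934 with only the CHT and IR/CHT libraries (edgeR).

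By lists, 18 of 24 interferon response genes were called higher in the aortic valve (all genes, 9.43%) and 0 of 24 in the pulmonary valve, and 16 of 24 had a called interaction with the smaller value in the pulmonary valve (all genes, 4.16%). A called interaction in that direction was also found for 14 of 24 foam cell and lysosomal genes, 9 of 20 macrophage markers and 5 of 21 p53 targets. OAS2 had an interaction of -1.85 ± 0.56 (SE, adjusted p = 0.0196) and CTSB of -1.21 ± 0.27 (SE, adjusted p = 0.00122). Conversely, 8 of 20 valve interstitial markers, 13 of 35 matrix genes, 11 of 33 genes of TGF-beta and BMP signaling and 10 of 31 Wnt genes had a called interaction with the larger value in the pulmonary valve (all genes, 9.73%), where the aortic valve had 10, 14, 11 and 16 of their members called lower (all genes, 13.1%). Heart muscle markers (8 of 22) and smooth muscle markers (6 of 16) also had called interactions with the larger value in the pulmonary valve, and the part of muscle RNA in the other counts was not tested. Among the valve interstitial markers, TBX20 had an interaction of 2.13 ± 0.28 (SE, adjusted p = 4.99e-07). Of 6 or 7 tested MHC class II genes per model, 6 were called higher in the aortic valve and 1 had a called interaction.

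**Figure D5:**
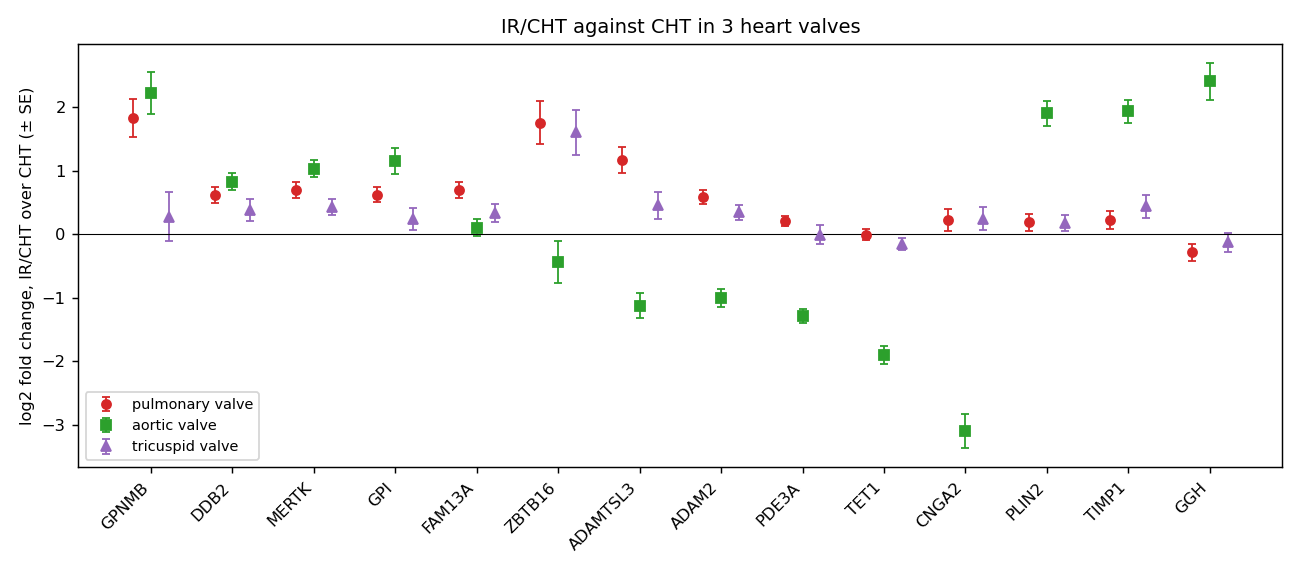
Log2 fold change of IR/CHT over CHT (y axis, points with SE bars) in the pulmonary, aortic and tricuspid valve for the 8 DEGs with a symbol and the 6 genes named by their interaction. Pulmonary valve values come from the model of that valve alone and the others from the models shared with it. GPNMB, DDB2, MERTK and GPI lie above 0 in all 3 valves, while ADAMTSL3, ADAM2, PDE3A, TET1 and CNGA2 lie between -1.0 and -3.10 in the aortic valve.

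Against the tricuspid valve, the other right-sided valve (7 IR/CHT and 6 CHT libraries), no interaction was called among 15372 genes, and 281 (1.83%) had an unadjusted p under 0.05 (edgeR). Within that model the tricuspid valve had 0 DEGs for IR/CHT over CHT and 2350 genes at an unadjusted p under 0.05 (15.3%), and the pulmonary valve had 20 DEGs (0.13%). ZBTB16 had log2 1.60 ± 0.35 in the tricuspid valve, GPNMB 0.28 ± 0.39, MERTK 0.43 ± 0.13, DDB2 0.38 ± 0.17, ADAMTSL3 0.45 ± 0.21 and ADAM2 0.34 ± 0.12 (each ± SE). The interaction for GPNMB was 1.56 ± 0.55. Valves of the same rabbits entered both models without a rabbit term. With rabbit as a block, 1624 interactions with the aortic valve had the larger and 769 the smaller value in the pulmonary valve, and none with the tricuspid valve was called.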

How the data were processed

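RNA from 134 libraries of 5 tissues was sequenced from total RNA. Per the methods and labels, reads were demultiplexed with bcl2fastq 2.20 and processed with nf-core/rnaseq against OryCun2.0, and the authors deposited raw counts per gene in 1 table per sequencing plate, 2 in all, with 29587 genes. All values here were computed from those counts in R 4.3.3.

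Groups were taken from the labels. The 27 pulmonary valve libraries entered 1 model with 4 treatment means, with edgeR 4.0.16 (filterByExpr, TMM scaling, robust quasi-likelihood test, Benjamini-Hochberg adjustment over 14450 genes). A gene was called at an adjusted p under 0.05 and a fold change over 1.5, in this model unless another fit is named. Errors are SE of the log2 fold change. CPM used TMM-scaled totals, and list levels are mean log2 CPM with a prior count of 2. Interactions used both valves' libraries in 1 model. Alternatives included DESeq2 1.42.0. Named genes were, per direction, up to 12 DEGs in order of p that had a symbol (or the 5 first genes where fewer than 5 passed), the 3 first DEGs of each list, 16 fixed genes where measured (some genes are not reported here), and the 3 first genes of the interaction per direction. Genes outside this rule were named after their values were seen. The libraries, gene lists and tests were chosen with earlier results of these data known. Each library is 1 rabbit, and a comparison of counts between libraries of a group, in the pulmonary, aortic and tricuspid valves, found no duplicates. Counts, intervals and p-values do not cover differences between rabbit series or plates.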

Additional observations from a re-analysis of the deposited data

Results flagged for a closer look

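In 208 groups of 6 or 7 libraries (gene list levels and named genes), 21 had a highest or lowest library far from the rest by Dixon's criterion, which flags about 1 in 20 groups by chance, and 14 of the 21 were at IR/CHT library L275. In L275 the mean log2 CPM was highest for collagens (7.45), other extracellular matrix (8.52), Wnt signaling (4.32), the circadian clock (4.45) and valve interstitial markers (9.09), and lowest for macrophage (3.22) and endothelial markers (3.06). By gene, L275 was highest for COL1A1 (2488 CPM), PER1 (116 CPM) and PER2 (43.5 CPM). It was lowest for CD163 (7.60 CPM), CCL2 (1.3 CPM), CD14 (7.80 CPM) and FKBP5 (45.4 CPM). PER2, CD14 and MYL9 were named after their values were seen.

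IR/CHT library L176 was far above the others of its group for red blood cell and platelet markers (mean log2 CPM 3.53), TGFBR3 (249.4 CPM) and MYL9 (193.9 CPM). On CHT, L230 was the highest for cytokines and chemokines (mean log2 CPM 1.5) and PHYHIPL (78.0 CPM), L154 the highest for MERTK (65.4 CPM) and L171 the lowest for TGFBR3 (92.5 CPM).

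The difference of IR/CHT from CHT was unequal in the pulmonary and the aortic valve by the interaction test (edgeR, adjusted p under 0.05), with 1555 genes at the larger and 664 at the smaller value in the pulmonary valve. The log2 difference, pulmonary minus aortic, was 2.28 for ADAMTSL3, 1.58 for ADAM2, 2.17 for ZBTB16, 0.58 for FAM13A, 1.47 for PDE3A, 1.88 for TET1, 3.31 for CNGA2, 2.13 for TBX20 and 6.06 for MYH7. It was -2.71 for GGH, -1.73 for TIMP1, -1.72 for PLIN2, -1.21 for CTSB, -1.85 for OAS2, -1.27 for BAX, -1.45 for CD68 and -2.40 for CCL2.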

How the results depend on the processing

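The count of 11 higher and 0 lower genes for IR/CHT over CHT became 363 and 103 with DESeq2, 112 and 58 in 1 model of all 5 tissues, and 17 higher with plate as a covariate. It became 1 higher on plate 1 alone, 1 on plate 2 alone, 5 without L176 and L275, 1 higher and 1 lower without CHT L230 and L246, and 0 higher and 0 lower with only the CHT and IR/CHT libraries, with a test against a fold change of 1.5, or with the heart muscle or the smooth muscle list as a covariate. The smooth muscle covariate and both joint omissions were chosen after seeing the data. Leaving out 1 library gave 0 to 24 higher and 0 to 2 lower genes, with 0 higher without CHT L171, L188 or L230 and 24 without IR/CHT L180. The cause was not tested. For CHT over Ctrl, the 23 called genes became 115 with DESeq2 and 19 to 25 with 1 library left out. For IR/CHT over Ctrl, the 102 became 318 with DESeq2 and 50 to 144 with 1 library left out, 50 without IR/CHT L176 and 60 to 67 without Ctrl L167, L153, L200, L263 or L242. Interactions with the tricuspid valve were 3 higher with only the CHT and IR/CHT libraries and 0 otherwise. The direction reversed for COL1A1 with DESeq2 (-0.073), without L275 (-0.058; with 1 library left out, -0.058 to 1.31) and without L176 and L275 (-0.027), for COL3A1 on plate 1 (-0.12), without L275 (-0.060; with 1 library left out, -0.060 to 0.21) and without both (-0.012), for ADIPOQ on plate 2 (-2.67) and with the heart muscle covariate (-0.13), for CD163 (-0.29) and BAX (-0.14) on plate 2, for CD163 without L230 and L246 (-0.050), for ACTA2 with the smooth muscle covariate (-0.12), and for the aortic interaction of ENSOCUG00000023065 with plate as a covariate (0.28). ACTA2 is a member of the smooth muscle list, so that covariate reduced its difference by construction. CHT and IR/CHT libraries came from different rabbits and could not be paired. Valves of the same rabbit could, and with rabbit as a block the interactions were 1624 larger and 769 smaller with the aortic valve, against 1555 and 664, and 0 with the tricuspid valve. Counting error limits genes near or below 1 CPM most.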
